A study of Rattus norvegicus with 10 samples.

Results

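The proteasome genes were taken as every gene of the deposited table whose symbol starts with Psma, Psmb, Psmc, Psmd, Psme, Psmf or Psmg and a digit. This rule selected 46 of 12828 genes, each on 1 line of the table, and all 46 are annotated there as protein-coding. RNA was sequenced from the arcuate nucleus (ARC), a hypothalamic nucleus that senses nutrients and hormones, of 10 Wistar rat dams killed at parturition. Of these, 5 had been fed 5X-FA, a diet with 5 times the recommended folic acid, and 5 had been fed 5X-MTHF, with methylfolate at the 5X level, and both diets were given in pregnancy. The ARC was cut out free hand from frozen slices, so neighboring tissue can be part of a sample.

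The proteasome is the protease that degrades ubiquitin-tagged proteins. Its 20S core is a barrel of alpha rings, which gate the entrance, and beta rings, of which the subunits encoded by Psmb5, Psmb6 and Psmb7 cut peptide bonds. The 19S cap binds ubiquitin chains, removes them and unfolds the substrate with a ring of ATPases. Interferon can replace the cutting subunits by those of the immunoproteasome, encoded by Psmb8, Psmb9 and Psmb10. In neurons the system is known for the turnover of synaptic proteins.

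The study set the diets against each other, and for the proteasome genes that comparison is not reported here. The table has 10 columns of per-sample values whose headings match no sample label, so no value could be given to a dam or a diet. Its fold changes and p-values are the authors' own comparison and were not used. What follows describes the genes by the authors' average over all libraries, by their position and by their promoters. It holds no test between the diets, no replicate error and no library depth, which is unknown from the values used.

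The level given for a gene is the authors' average log2 CPM, CPM being a read count scaled to the library total. It is read here as an approximate share of reads. It is not divided by transcript length, for which no value was at hand, so a larger share in a longer gene need not be more transcripts. In bulk tissue, fewer cells of a type and less RNA per cell cannot be told apart.

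The proteasome genes took a larger share of reads than most genes of the table. Their median was 6.34 log2 CPM, against 4.94 for all 12828 genes and 5.02 for the 12383 protein-coding genes. Of the 46 genes, 38 lay above the median of all genes and 28 at or above percentile 75, where 3207 of all genes lie by definition. Back on the linear scale, the averages of the 46 genes summed to 3932 CPM, which is 0.392% of the sum over all genes. Their mean share per gene was near that of all genes, with a log2 of the mean CPM of 6.42 against 6.29. The values ran from 1.73 log2 CPM for Psmb9 to 7.94 log2 CPM for Psmd2.

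**Figure D1:**
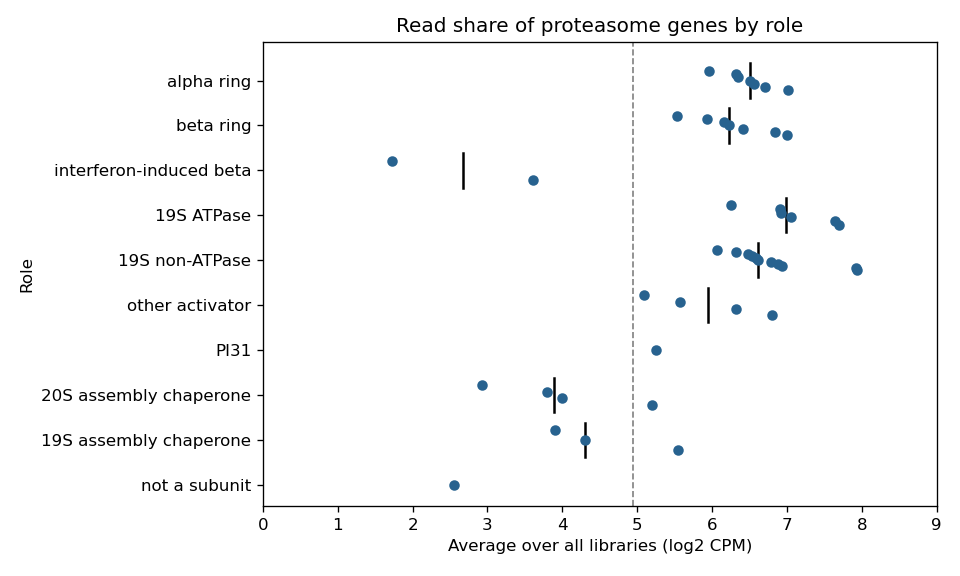
Authors' average log2 CPM over all libraries (x axis) of the 46 proteasome genes, 1 point a gene, by role (y axis). Black bars are medians of roles with more than 1 gene, and the dashed line is the median of all genes in the table, 4.94. All points of the alpha ring, beta ring and 19S subunits lie to the right of the line, and both interferon-induced beta genes lie to its left.

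The constitutive 26S proteasome is the 20S core with its 19S cap. The 31 of its genes that the rule selected had a narrower range of read shares than the other genes selected. The cap genes Adrm1 and Sem1 are not among the 31 and are given further below. All 31 lay above the median of all genes, and 26 of them at or above percentile 75. Their range was 2.41 on the log2 scale, whereas the other 15 genes selected by the rule covered 5.07.

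In the alpha ring, the 7 genes Psma1 to Psma7 had a median of 6.51 log2 CPM. The smallest read share was that of Psma5, at 5.96 log2 CPM. Psma3 had the greatest, at 7.01 log2 CPM, and the difference between them was 1.05 on the log2 scale. The testis form Psma8 had no line under this symbol in the table.

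In the beta ring, the 7 genes Psmb1 to Psmb7 had a median of 6.23 log2 CPM. The structural subunits Psmb2 and Psmb1 bounded the class, at 5.530 and 7.005 log2 CPM. The genes of the cutting subunits lay between them. Psmb5, for the chymotrypsin-like site, had an average of 6.23 log2 CPM, Psmb6, for the caspase-like site, 6.16 log2 CPM, and Psmb7, for the trypsin-like site, 6.42 log2 CPM.

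The immunoproteasome genes Psmb9 and Psmb10 had smaller read shares than all 7 genes of the beta ring. Psmb9 was the lowest of the 46 genes. Psmb10 lay within the range of the assembly chaperones, above Psmg4 at 2.92 log2 CPM and below Psmg2 at 3.80 log2 CPM. Psmb9, which replaces Psmb6, had an average of 1.73 log2 CPM, or 3.32 CPM, at percentile 5.28 of all genes. The read share of Psmb6 was 71.8 CPM, a difference of 4.43 on the log2 scale. Psmb10, which replaces Psmb7, had 3.60 log2 CPM, or 12.1 CPM, at percentile 24.2. The read share of Psmb7 was 85.5 CPM, a difference of 2.81 on the log2 scale. These differences are between genes, in read share without division by length. Psmb8, the counterpart of Psmb5, and the thymus form Psmb11 had no line under these symbols in the table, so no value is given for them. The microglial genes Cx3cr1, P2ry12, Aif1 and Csf1r, markers of the resident immune cells of brain, had averages between 3.83 and 6.82 log2 CPM, and their part in the level of Psmb9 or Psmb10 was not tested.

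The ATPases that unfold substrates, Psmc1 to Psmc6, had a median of 6.99 log2 CPM, and all 6 lay at or above percentile 75 of all genes. Psmc4 had the smallest read share, at 6.25 log2 CPM. Psmc1 and Psmc5 had 7.64 and 7.69 log2 CPM.

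The 11 non-ATPase genes of the cap had a median of 6.62 log2 CPM. Psmd1 and Psmd2, which encode the large scaffold subunits Rpn2 and Rpn1, had 7.93 and 7.94 log2 CPM, at percentiles 94.8 and 94.9. They were the only genes of this class above 7 log2 CPM. The ubiquitin receptor gene Psmd4 had 6.48 log2 CPM, and Psmd14, for the deubiquitinase that strips the chain from the substrate, 6.32 log2 CPM. Psmd8 had the smallest read share of the class, at 6.06 log2 CPM.

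Other activators can take the place of the cap. Psme1 and Psme2 encode the alpha and beta chains of PA28, an interferon-induced ring that opens the core without ubiquitin, and had 5.57 and 5.09 log2 CPM. Psme3, for the nuclear gamma form, had 6.32 log2 CPM, and Psme4, for the single-chain activator PA200, 6.80 log2 CPM. Psmf1, for the proteasome regulator PI31, had 5.25 log2 CPM.

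The assembly chaperones, which leave once the particle is built, had medians of 3.89 log2 CPM for the core and 4.30 log2 CPM for the cap. Among the 4 chaperones of the core, Psmg1 had 5.19 log2 CPM and Psmg2, its partner, 3.80 log2 CPM. Psmg3 and Psmg4, which form the other dimer, had 3.99 and 2.92 log2 CPM. Among the 3 chaperones of the cap, Psmd5 had 5.55 log2 CPM, Psmd9 had 4.30 log2 CPM and Psmd10 (gankyrin), on the X chromosome, had 3.90 log2 CPM. Only Psmg1 and Psmd5 of these 7 genes lay above the median of all genes. The rule also selected Psmc3ip, at 2.55 log2 CPM, whose product partners the meiotic recombinase and is not a proteasome subunit. Without it the median of the remaining 45 genes was 6.35 log2 CPM.

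A list of 27 other genes of the ubiquitin-proteasome system had 28 lines in the table, as Rps27a occurs more than once. Their median was 6.97 log2 CPM, and 25 of the 28 lines lay above the median of all genes. The cap subunit genes Adrm1 and Sem1, which the rule does not reach, had 6.01 and 5.35 log2 CPM, at percentiles 71.7 and 58.4. Sem1 thus lay below Psmb2, the lowest of the 31 selected genes of the 26S, at 5.53 log2 CPM. Pomp, the maturation factor of the core, had 2.29 log2 CPM and was the lowest of the list. Ubb, a polyubiquitin gene, was the highest, at 10.24 log2 CPM. Nfe2l1, for the transcription factor known to raise proteasome genes when the protease is inhibited, had 7.79 log2 CPM, and its relative Nfe2l2 5.26 log2 CPM.

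Of 8 markers of arcuate neurons 7 were found, with a median of 2.45 log2 CPM and a range from 0.08 (Kiss1) to 6.02 log2 CPM (Cartpt). Npy had no line in the table, and Agrp had 1.42 log2 CPM. Cartpt alone of the 7 lay above the median of all genes, and Pomc had 4.67 log2 CPM. The oligodendrocyte gene Mbp had 12.59 log2 CPM. Marker medians were 12.48 log2 CPM for oligodendrocytes, 9.96 for neurons in general and 9.62 for astrocytes. They were 6.03 log2 CPM for endothelium and 2.80 for tanycytes, each without 1 marker that was not found. Markers of regions outside the ARC were also in the table, with medians of 5.01 log2 CPM for striatum and 3.34 log2 CPM for cortex and hippocampus. The striatal genes ran from 4.26 (Adora2a) to 7.07 log2 CPM (Ppp1r1b). Of the cortical and hippocampal genes, Slc17a7 had 7.17 log2 CPM, and Tbr1 and Neurod6 had 3.34 and 2.40 log2 CPM, below the median of all genes. The part of each cell type or region in the proteasome values was not tested.

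The 46 genes are spread over 18 chromosomes of Rnor_6.0, the build of the table. Chromosome 10 holds 8 of them, or 17.4%, and 8.23% of all genes in the table. Chromosome 15 holds 5, or 10.9%, and 2.82% of all genes. The closest neighbors are Psme1, at chromosome 15 from 34256071 to 34258947, and Psme2, from 34265557 to 34269851, which lie 6609 bases apart with no other whole gene of the table between them. Psmb4 and Psmd4 lie 151726 bases apart on chromosome 2, with 3 genes of the table in the interval. Psmb9, on chromosome 20 from 3973420 to 3978845, has as its nearest gene Tap1, a peptide transporter of antigen presentation, at 189 bases.

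For some of these genes reads can also match other loci. The span of Psmb7 overlaps that of Nek6, Psmc3ip overlaps Mlx and Psme1 overlaps Emc9, so that a read can fall in both spans of such a pair. The study checked that its libraries keep the strand, but the strand setting of the read counting is not given in the sources used here. The other 43 spans overlap no gene of the table. In RefSeq, 46 pseudogenes are named for 19 of the genes, with 7 for Psmb3, 5 for Psma6 and 4 for Psme3. How the counting treated reads that match such copies was not tested, so the values of these 19 genes are uncertain.

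Promoter windows, from 250 bases before to 50 bases after the gene start, were found in RefSeq (build GRCr8) for 42 of the 46 genes. Those of Psma7, Psmd6, Psmd12 and Psmd14 were not analysed here. Short motifs were searched on both strands. They were CCAAT, the box bound by NF-Y, GGGCGG, the GC box bound by Sp1, and TGACNNNGC and TGAGNNNGC, forms of the antioxidant response element core, which Nfe2l1 and Nfe2l2 are known to bind. Matches of different motifs were counted separately also where they overlap. The stretches below are shown because they belong to the 20S core genes that hold both a CCAAT box and an antioxidant core wholly before the start. They read 5′ to 3′ on the strand of the gene, with up to 15 bases beside the outermost matches and none after the last base before the start. Capitals mark the matches of CCAAT and of the antioxidant core, on either strand, that lie wholly before the start. GGGCGG matches are not marked, such as that of Psmb2 beginning 63 bases before the start. In Psmb2 a further TGAGNNNGC match begins 6 bases before the start and runs across it, and its letters are left in lower case.
Psma3, GRCr8 chr6:95219625-95219748, plus strand: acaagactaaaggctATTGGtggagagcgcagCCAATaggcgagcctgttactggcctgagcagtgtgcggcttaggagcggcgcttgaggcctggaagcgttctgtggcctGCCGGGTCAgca
Psma5, GRCr8 chr2:198584403-198584483, plus strand: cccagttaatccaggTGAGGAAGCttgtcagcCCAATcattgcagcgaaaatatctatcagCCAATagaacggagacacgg
Psmb2, GRCr8 chr5:144254829-144255057, plus strand: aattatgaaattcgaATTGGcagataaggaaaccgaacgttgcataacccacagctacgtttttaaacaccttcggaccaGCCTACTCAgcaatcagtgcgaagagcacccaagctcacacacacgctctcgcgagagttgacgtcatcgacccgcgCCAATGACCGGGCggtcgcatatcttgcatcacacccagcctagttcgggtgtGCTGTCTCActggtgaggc
Psmb3, GRCr8 chr10:83193660-83193782, plus strand: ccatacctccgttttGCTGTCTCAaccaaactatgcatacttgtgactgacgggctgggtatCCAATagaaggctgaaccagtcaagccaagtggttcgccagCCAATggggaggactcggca

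In Psma3 the CCAAT boxes shown lie on opposite strands, from 109 and from 92 bases before the start. Psma5 has both of its CCAAT boxes on the strand of the gene, 70 and 41 bases before the start. In Psmb2 a CCAAT box 72 bases before the start runs into the core that begins 68 bases before it, so that they share a base. Psmb3 carries its CCAAT boxes 65 and 24 bases before the start.

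CCAAT was present in 21 of the 42 windows (50%), beside 37.6% of the 9445 windows of genes in the table. By role it was found in 5 of 6 alpha ring genes, 4 of 7 beta ring genes, 2 of 6 ATPase genes and 3 of 8 non-ATPase genes of the cap. Psmb9 had a match and Psmb10 had none.

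Either form of the antioxidant core was present in 17 windows (40.5%), beside 31.9% of the windows of genes in the table. TGACNNNGC was found in 8 windows (19.05% and 14.85%, respectively), among them those of Psmb5, Psmb6 and Psmd1. TGAGNNNGC was found in 10 windows (23.81% and 19.97%), among them those of Psmc2, Psmd2 and Psmd5. The core was in 5 of 7 beta ring genes, 2 of 6 alpha ring genes and neither of the interferon-induced beta genes. In the cap it was in 4 of 8 non-ATPase genes and 1 of 6 ATPase genes.

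GGGCGG was the most frequent motif, in 31 windows (73.8%), beside 63.7% of the windows of genes in the table. All 6 alpha ring genes with a window, all 4 core chaperone genes and all 4 genes of other activators held it. It was in 5 of 7 beta ring genes, 4 of 6 ATPase genes and 4 of 8 non-ATPase genes of the cap. Of the cap chaperone genes 2 of 3 held it, and of the interferon-induced beta genes 1 of 2. The windows of Psmb4, Psmb10 and Psmd11 held none of the 4 motifs. The median GC content of the 42 windows was 57.0%, against 61.3% for the genes of the table. Matches are descriptions of these letters and no binding was measured. The shares exceeded those in the table by 3.84 (TGAGNNNGC) to 12.4 (CCAAT) percentage points, and no test was made of these differences.

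**Figure D2:**
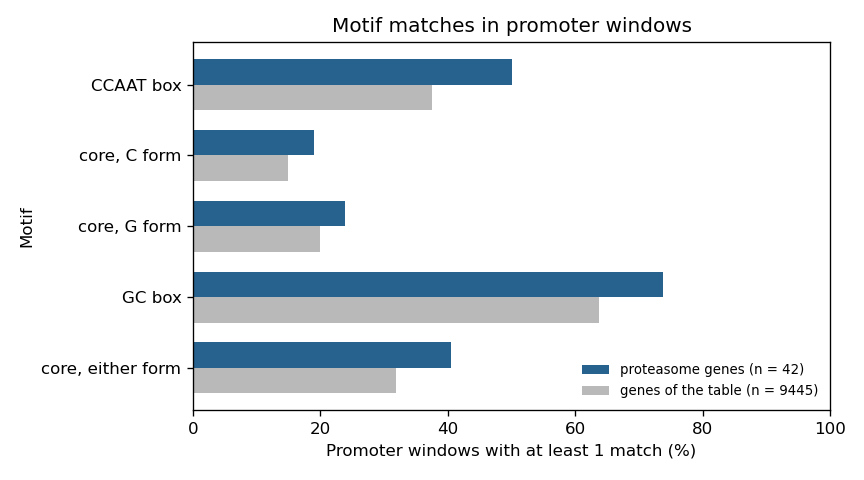
Percent of promoter windows with at least 1 match (x axis) for each motif (y axis), in 42 proteasome genes and in 9445 genes of the table. Core stands for the antioxidant core, its C form being TGACNNNGC and its G form TGAGNNNGC. For each motif the bar of the proteasome genes is the longer, with 50% against 37.6% for CCAAT.

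Most matches lay before the gene start. Of 31 CCAAT matches, 28 were centered before the start and 16 of them within 100 bases of it, with 16 on the strand of the gene and 15 on the other. For GGGCGG, 44 of 49 matches were centered before the start and 30 within 100 bases of it. TGACNNNGC had 8 of 10 matches centered before the start, and TGAGNNNGC 14 of 15. The window itself has 250 bases before and 50 after the start. Positions were not counted for the other genes of the table, so these counts have no background share.

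**Figure D3:**
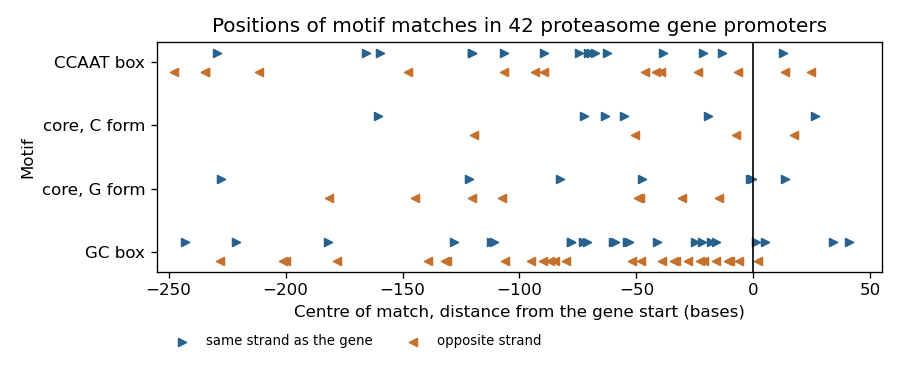
Centre of each motif match relative to the gene start (x axis, bases, start at 0) for the 4 motifs (y axis) in the 42 proteasome gene windows. Blue triangles are matches on the strand of the gene and orange triangles matches on the other, and most of both lie left of the start, as 28 of 31 do for CCAAT.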

How the data were processed

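PolyA RNA of the ARC of 10 dams was sequenced. According to the submitters' processing notes and the methods of the study, reads were trimmed with Trim Galore 0.5.0, aligned with STAR 2.6.0c to Rnor_6.0 with Ensembl gene models and counted with HTSeq 0.6.1p2. The average log2 CPM over all libraries was deposited by the authors. The raised powers of 2 of that column sum to 1002152 over 12828 genes. The methods state a minimum number of reads per gene over the samples, and whether the deposited table was filtered by the same rule is not given in the sources used here.

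The table also gives fold changes with their F statistics, p-values and false discovery rates, the authors' own comparison of the diets, none of which was used. Another 10 columns of per-sample values could not be tied to a sample and stayed out of every step, so the planned test between diets was not run. Nor were protein identity and levels per length, for want of sequences and lengths.

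All 46 symbols were matched to RefSeq (GRCr8), used for names and promoters. Percentiles are over all genes of the table. Motif matching was tested on 200 simulated windows a motif. Python 3.11.15, numpy 2.4.6, pandas 2.3.3 and matplotlib 3.10.9 were used. The members, lists and motifs were chosen with earlier results of these data known. Every gene the rule selects could be named, and other genes only from the lists of ubiquitin-proteasome genes and cell type markers, with neighbors by position.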

Additional observations from a re-analysis of the deposited data

How the results depend on the processing

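Ranked among protein-coding genes only, 28 proteasome genes lay at or above percentile 75, as among all genes. The log2 of the mean CPM was 6.42 for the 46 genes, in place of the median of 6.34. For all genes it was 6.29, in place of the median of 4.94. By the mean, the proteasome genes therefore lay much closer to all genes than by the median. For each role with more than 1 gene the log2 of the mean lay above the median. With only the strand of the gene searched, TGACNNNGC was in 5 windows, TGAGNNNGC in 6 and GGGCGG in 19, since fewer positions were searched, and CCAAT in 14. With only the 250 bases before the start, the counts were 7, 9, 30 and 20, respectively. No paired analysis was possible because the per-sample columns carry no replicate number that could be matched to a label. For the same reason no dam was left out and no other normalization, filter or pseudocount was run. Division by length and other alignment settings were not run. The study states an approximate depth for all libraries alike, but the counts of each library were not at hand, so the precision of low averages such as that of Psmb9 was not given.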
